A study of Mus musculus with 32 samples.

Results

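Expression of the D-type cyclins, their kinase partners and the inhibitors of those kinases was followed through the first wave of spermatogenesis in mouse germ cells. The 10 genes were Ccnd1, Ccnd2, Ccnd3, Cdk4, Cdk6, Cdkn1a, Cdkn1b, Cdkn1c, Cdkn2c and Cdkn2d, taken by symbol and matched to gene identifiers in the GENCODE mouse annotation. All 10 were among the 20368 expressed genes of the juvenile gene table. The samples were germ cells of individual C57BL/6J male mice, 3 at 8 days post-partum (dpp) and 5 at each of 10, 12, 14, 16 and 18 dpp. After inspecting its data, the study left out further samples of 8 dpp that matched others of that age poorly. The spread among the 3 kept may therefore be too small. A separate table held 4 adult samples of pachytene and diplotene spermatocytes, each pooled from several C57BL/6J males of 9 weeks and enriched by sedimentation, and was made apart from the juvenile table. The labels name no transgene and no treatment for any animal.

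D-type cyclins bind CDK4 or CDK6 and start the phosphorylation of the retinoblastoma protein, which releases E2F factors and commits a cell to another round of division. Inhibitors of the CIP/KIP family (Cdkn1a, Cdkn1b, Cdkn1c) bind cyclin-CDK complexes of several kinds, whereas INK4 inhibitors (Cdkn2c, Cdkn2d) bind CDK4 and CDK6 themselves and keep the cyclins off. In the testis, spermatogonia and young Sertoli cells divide by mitosis, while spermatocytes have left the mitotic cycle and go through a long meiotic prophase.

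The RefSeq promoters of 3 genes are shown for reference beside the values of those genes. Cdkn2c has a pair of RefSeq starts. The inner is the annotated start of 1 measured transcript, and the outer lies 433 bases inside the annotated start of the other. Cdkn2d is the other INK4 gene among the 10. Cdk4, summed over its transcripts, had the highest mean of the 10 genes at every juvenile age. They are RefSeq promoters of build GRCm38.p6, from 250 bases before to 50 bases after the start, written 5′ to 3′ on the strand of the gene. Capitals mark matches to any of 5 motifs searched on both strands, namely TGACGTCA (CRE), TTTNGCGC (E2F), AACTGNC (MYB), CACGTG (E-box) and GTTGCC (part of the RFX site). RefSeq promoters were found for 7 of the 10 genes, and none was found for Ccnd1, Ccnd2 and Cdkn1c.
Cdkn2c outer start, chr4:109666707-109667006, minus strand: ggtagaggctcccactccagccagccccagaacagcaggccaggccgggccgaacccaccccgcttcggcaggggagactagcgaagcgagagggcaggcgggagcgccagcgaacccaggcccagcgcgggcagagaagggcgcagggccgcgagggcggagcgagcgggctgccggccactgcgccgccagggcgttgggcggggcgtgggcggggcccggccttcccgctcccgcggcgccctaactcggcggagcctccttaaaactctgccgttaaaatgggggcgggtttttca
Cdkn2c inner start, chr4:109665323-109665622, minus strand: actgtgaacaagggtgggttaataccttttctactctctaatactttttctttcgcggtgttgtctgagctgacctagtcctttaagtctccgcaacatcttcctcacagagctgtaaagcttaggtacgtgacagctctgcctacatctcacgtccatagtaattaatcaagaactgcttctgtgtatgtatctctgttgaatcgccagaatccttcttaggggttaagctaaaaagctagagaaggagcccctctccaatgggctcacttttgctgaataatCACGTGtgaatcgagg
Cdkn2d, chr9:21291160-21291459, minus strand: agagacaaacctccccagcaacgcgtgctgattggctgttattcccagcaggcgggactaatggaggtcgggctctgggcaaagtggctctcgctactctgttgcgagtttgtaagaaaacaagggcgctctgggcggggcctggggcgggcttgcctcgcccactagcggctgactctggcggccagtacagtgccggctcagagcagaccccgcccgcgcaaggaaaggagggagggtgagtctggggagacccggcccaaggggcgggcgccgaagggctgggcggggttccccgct
Cdk4, chr10:127063285-127063584, plus strand: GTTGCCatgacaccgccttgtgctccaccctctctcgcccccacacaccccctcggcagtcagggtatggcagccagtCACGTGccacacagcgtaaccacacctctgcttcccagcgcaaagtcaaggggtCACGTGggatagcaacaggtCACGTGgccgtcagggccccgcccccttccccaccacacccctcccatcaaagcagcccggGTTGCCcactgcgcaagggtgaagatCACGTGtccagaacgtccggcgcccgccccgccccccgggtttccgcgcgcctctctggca

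The outer Cdkn2c window had a GC content of 73.3% and none of the 5 motifs. The inner window, 1384 bases further into the gene, had a GC content of 44.0% and 1 CACGTG, and the median of all 32851 RefSeq promoters was 52.7%. The Cdkn2d window, with a GC content of 66.3%, held none of the 5 motifs. The Cdk4 window held CACGTG 4 times and GTTGCC 2 times. CACGTG, the letters bound by MYC and its partners among others, was present in 7.15% of all RefSeq promoters, and 4 or more copies were present in 8 of them (0.0244%), a count made after the Cdk4 window had been seen. The other shares of all promoters were 1.79% for TGACGTCA, 1.38% for TTTNGCGC, 12.8% for AACTGNC and 12.5% for GTTGCC. A match to these letters describes the sequence, and no binding was measured.

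Levels are given as TPM, the number of transcripts of a gene among a fixed total number of transcripts, a measure per transcript length that can be compared between genes. The level of a gene sums all its annotated transcripts, also those not annotated as protein-coding. At 8 dpp Cdk4 was the highest of the 10 genes, at 231 ± 7.83 TPM (SD, n = 3), followed by Ccnd2 at 86.8 ± 3.36, Ccnd3 at 50.9 ± 3.37, Cdkn1b at 38.7 ± 4.11, Ccnd1 at 38.1 ± 2.95, Cdkn2d at 30.8 ± 3.13, Cdkn2c at 17.3 ± 1.49, Cdkn1c at 12.2 ± 2.34, Cdk6 at 11.7 ± 0.474 and Cdkn1a at 5.45 ± 1.95 TPM. The mice overlapped between the neighbours Cdkn1b and Ccnd1 and between Cdkn1c and Cdk6, and the other neighbours in this order did not overlap. At 18 dpp the order was Cdk4 (132 ± 21.7 TPM, SD, n = 5), Cdkn2d (116 ± 21.1), Cdkn2c (85.9 ± 26.7), Ccnd3 (31.1 ± 6.04), Ccnd1 (26.9 ± 3.55), Cdkn1b (24.3 ± 1.84), Ccnd2 (20.8 ± 4.24), Cdkn1a (15.9 ± 2.91), Cdk6 (4.75 ± 0.875) and Cdkn1c (4.51 ± 1.35). Only the gaps between Cdkn2c and Ccnd3 and between Cdkn1a and Cdk6 were free of overlap between neighbours at that age. Cdkn2d and Cdkn2c thus stood sixth and seventh at 8 dpp and directly behind Cdk4 at 18 dpp.

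**Figure D1:**
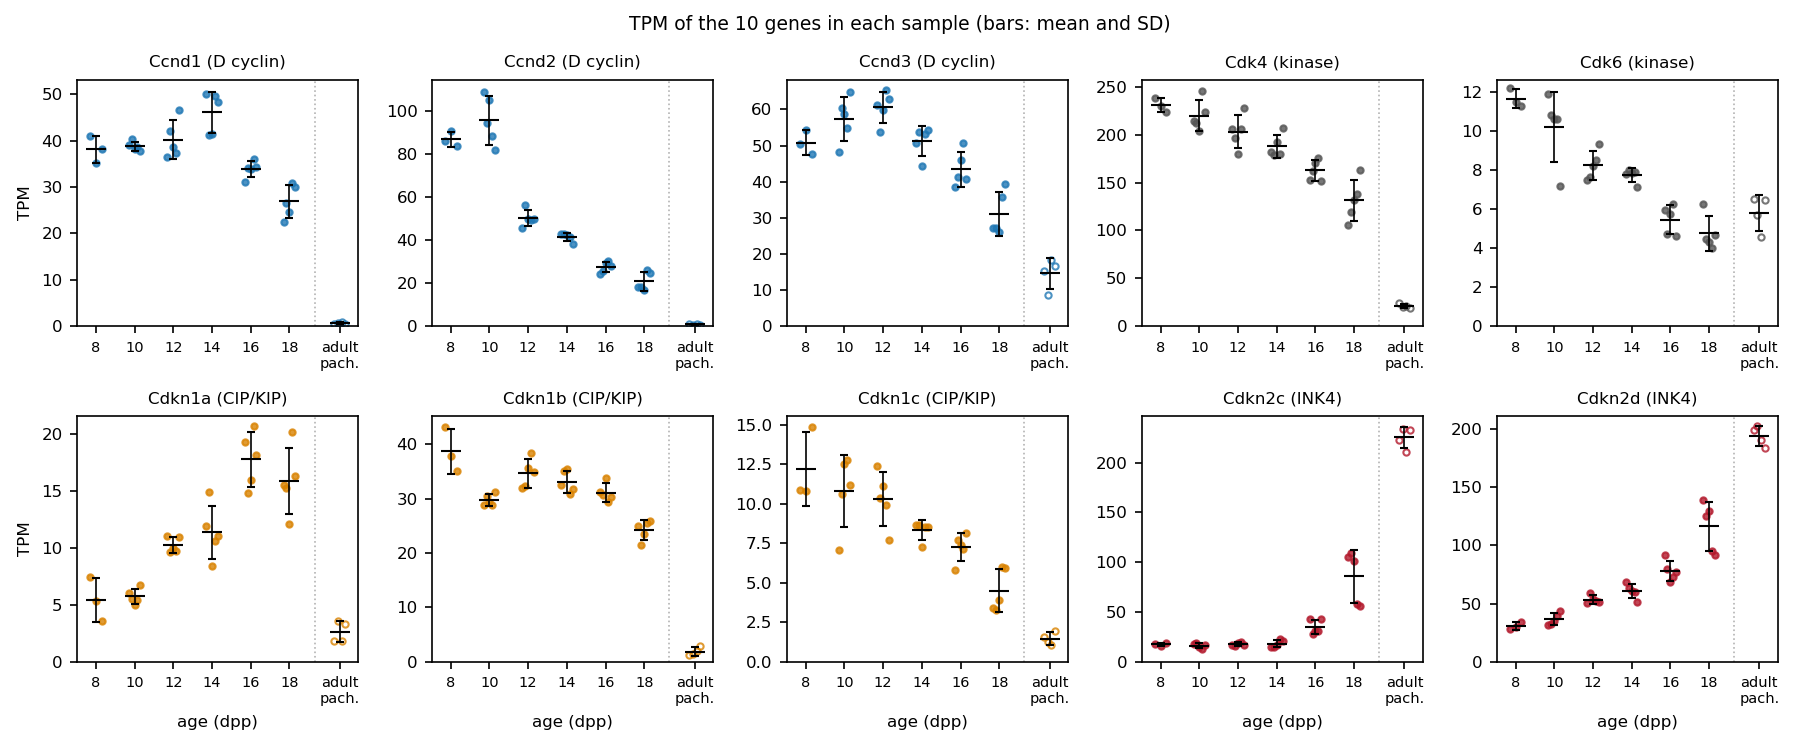
TPM of each of the 10 genes (vertical axes, each starting at 0) in every mouse at 8 to 18 dpp and, right of the dotted line as open circles, in the 4 adult pachytene samples of the separately made table; bars give the mean and SD. Ccnd2 fell from a mean of 86.8 to 20.8 TPM between 8 and 18 dpp, and Cdkn2c and Cdkn2d rose to 85.9 and 116 TPM.

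All 10 genes differed among the 6 ages (limma moderated F test on log2(TPM + 1), adjusted p from 2.31e-16 for Ccnd2 to 6.03e-07 for Cdkn1c), as did 77.6% of all genes tested. Between 8 and 18 dpp all 10 passed as well, against 68.2% of all genes. Higher at 18 dpp were 3 of the 10 (31.8% of all genes were), namely Cdkn2c, Cdkn2d and Cdkn1a, and lower were 7 (36.3% of all genes), namely the D cyclins, both kinases, Cdkn1b and Cdkn1c. The median log2 fold change was -0.68 over the 10 genes and -0.09 over all genes tested. The share of genes called in this comparison was so high that passing it says little about these genes, and the sizes and times of the changes are what follows. These suspensions were mixtures of cell types, in which fewer cells of a type and less RNA per cell cannot be told apart.

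**Figure D2:**
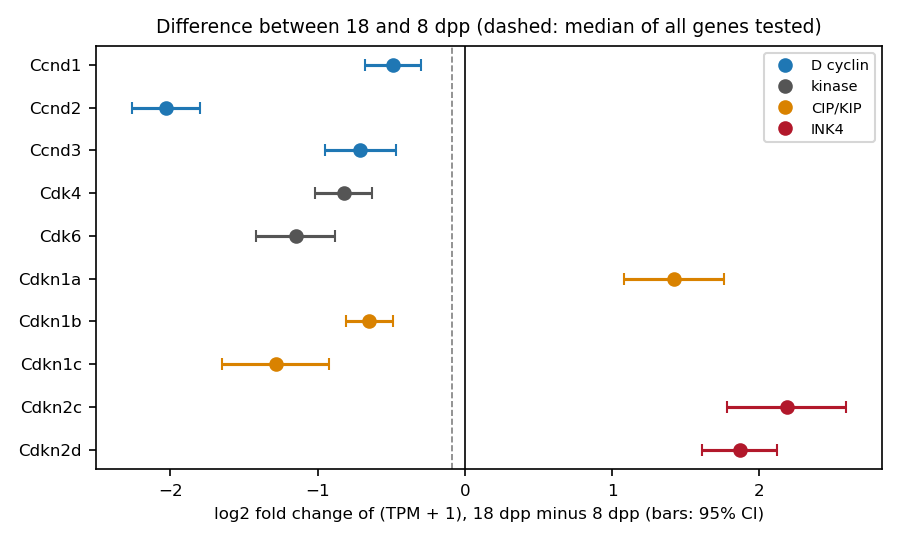
Log2 fold change of (TPM + 1) from 8 to 18 dpp (horizontal axis) for each of the 10 genes, coloured by role, with 95% confidence intervals from limma; the dashed line is the median of all genes tested, -0.09. Cdkn1a, Cdkn2d and Cdkn2c lie right of 0, at 1.42, 1.87 and 2.19, and the other 7 lie left of it.

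Among the D cyclins, Ccnd2 changed most and earliest. Ccnd2, the D cyclin of chromosome 6, is known for its part in the growth of gonadal cells. Its level was 86.1, 90.5 and 83.9 TPM at 8 dpp, and 109, 94.6, 105, 88.3 and 81.8 TPM at 10 dpp. At 12 dpp it was 45.8, 56.4, 49.6, 49.5 and 50.0 TPM, below every younger mouse. It went on to 42.6, 43.0, 42.2, 41.6 and 38.1 TPM at 14 dpp. The levels were 24.4, 25.8, 29.5, 30.2 and 27.8 TPM at 16 dpp. They were 18.4, 18.2, 16.6, 26.0 and 24.7 TPM at 18 dpp, where 2 of the 5 mice lay within the range of 16 dpp. No mouse of 12 dpp overlapped with 14 dpp, and none of 14 dpp with 16 dpp.

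The drop of Ccnd2 from 10 to 12 dpp was -0.91 on the log2 scale (SE 0.0973, 95% confidence interval -1.11 to -0.71, adjusted p = 1.17e-07). At that step 4 of the 10 genes were called, against 21.4% of all genes. Ccnd2 alone was lower (9.39% of all genes were), and Cdkn1a, Cdkn1b and Cdkn2d were higher (12.0% of all genes). The steps from 14 to 16 dpp (-0.58, adjusted p = 6.57e-05) and from 16 to 18 dpp (-0.41, adjusted p = 9.79e-04) also passed, and the total from 8 to 18 dpp was -2.03 (SE 0.112, adjusted p = 1.38e-14), a 4.09-fold decrease of TPM + 1.

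Markers of Sertoli cells, which express Ccnd2 in the young testis, also moved. All 8 Sertoli markers were detected in these suspensions, which are labelled germ cells and for which the study's methods describe washing the tubules free of interstitial cells and counting germ cells under the microscope, and their summed level in the mice of 8 dpp had a median of 2127 TPM (range 2104 to 2341). The sum ranged from 2041 to 2373 TPM in mice of 10 dpp, from 2039 to 2250 TPM in those of 12 dpp and from 1687 to 2040 TPM in those of 14 dpp. It ranged from 1488 to 1890 TPM in mice of 16 dpp and from 1026 to 1443 TPM in those of 18 dpp, with a median of 1078 TPM. At 12 dpp the mean Sertoli sum was 96.5% of its 8 dpp mean and Ccnd2 was at 57.9% of its own, and at 18 dpp they were at 54.5% and 23.9%. Within the list, the mean of Amh was 336 TPM at 10 dpp and 207 TPM at 12 dpp, that of Wt1 was 384 and 251 TPM, and that of Cldn11 was 640 and 706 TPM. None of the 8 was at 0 at any age. The mean summed level of the 6 undifferentiated spermatogonium markers was between 83.1% and 91.0% of its 8 dpp mean from 10 to 18 dpp. That sum held Id4, whose mean was 11.5 TPM at 8 dpp and 53.9 TPM at 18 dpp, and without Id4 the sum was at 80.3% of its 8 dpp mean at 12 dpp and at 46.2% at 18 dpp. The part of these lists in the course of Ccnd2 was not tested.

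**Figure D3:**
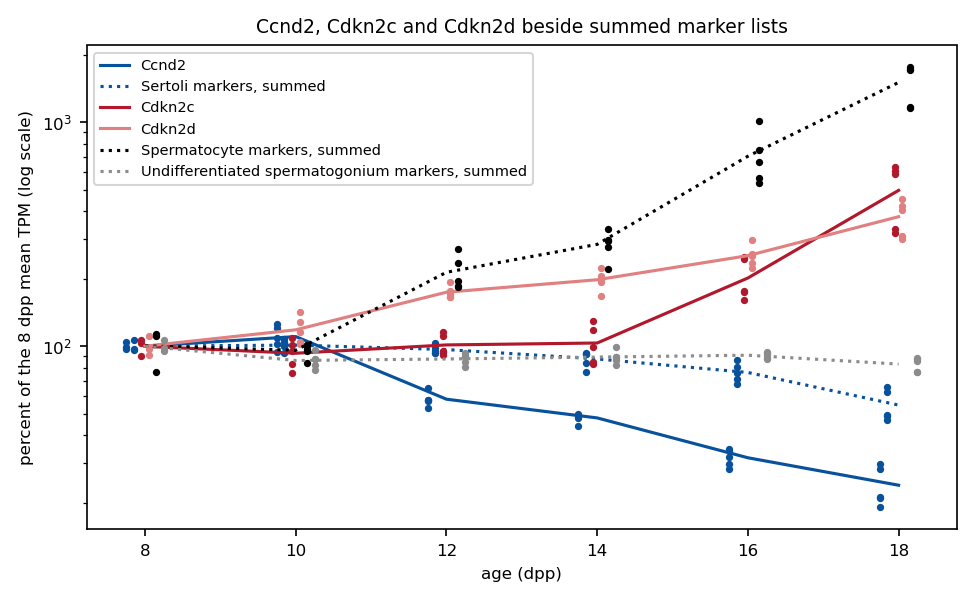
Ccnd2, Cdkn2c, Cdkn2d and 3 summed marker lists as a percentage of their 8 dpp mean TPM (vertical axis, log scale) in each juvenile mouse (points), with lines through the mean of each age. The undifferentiated spermatogonium sum is plotted with Id4, at 83.1% at 18 dpp, and without Id4 it was at 46.2%. At 18 dpp Ccnd2 was at 23.9% and the Sertoli markers at 54.5%, while Cdkn2c was at 496%, Cdkn2d at 378% and the spermatocyte markers at 1504%. The spermatocyte sum, with a median of 5410 TPM at 18 dpp, held Ldhc at a mean of 2396 TPM.

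Ccnd1 and Ccnd3 held their level for longer. Ccnd1 had means of 38.1 ± 2.95, 38.8 ± 0.975, 40.2 ± 4.23 and 46.1 ± 4.46 TPM over the first 4 ages, and of 33.9 ± 1.79 and 26.9 ± 3.55 TPM over the last pair. Every mouse of 16 dpp (31.2 to 36.1 TPM) was below every mouse of 14 dpp (41.2 to 50.2 TPM), and that step passed (-0.43, SE 0.0808, adjusted p = 2.78e-04), as did the next (-0.33, adjusted p = 0.00124). Ccnd3 had means of 50.9 ± 3.37, 57.4 ± 6.23, 60.6 ± 4.31, 51.2 ± 4.17 and 43.4 ± 4.94 TPM over the ages from 8 to 16 dpp. Its only step past the threshold was that to 18 dpp, at 31.1 ± 6.04 TPM (-0.48, SE 0.101, adjusted p = 2.60e-04). At 18 dpp the Ccnd3 values split into 27.2, 27.1 and 26.0 TPM in mice 1 to 3 and 35.7 and 39.3 TPM in mice 4 and 5.

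The make-up of the summed D-cyclin TPM shifted. Ccnd2 made up 49.4% ± 0.900 of the summed D-cyclin TPM at 8 dpp and 49.8% ± 4.15 at 10 dpp, and then 33.3% ± 2.24 at 12 dpp and 26.3% ± 1.35 at 18 dpp. Ccnd3 went from 28.9% ± 1.14 at 8 dpp to 40.1% ± 3.09 at 12 dpp and 39.3% ± 1.60 at 18 dpp, and Ccnd1 from 21.7% ± 1.93 to 34.4% ± 2.31 between 8 and 18 dpp. The sum of the 3 genes was 176 ± 5.29 TPM in mice of 8 dpp, 192 ± 8.50 TPM in those of 10 dpp, 151 ± 6.24 TPM in those of 12 dpp and 78.7 ± 13.4 TPM in those of 18 dpp (SD; 3 mice of 8 dpp and 5 of every other age). No test was run on these shares.

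**Figure D4:**
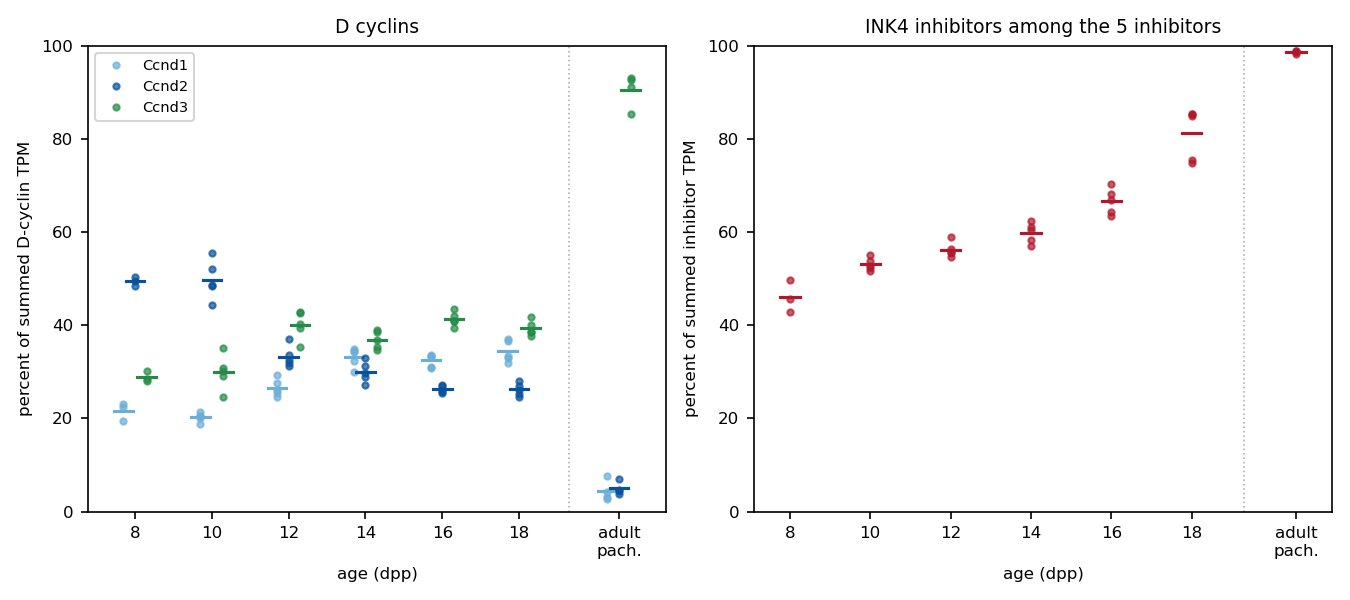
Left, Ccnd1, Ccnd2 and Ccnd3 as a percentage of the summed D-cyclin TPM; right, Cdkn2c plus Cdkn2d as a percentage of the summed TPM of the 5 inhibitors, in each sample (points; short lines are means) by age in dpp, with the 4 adult samples right of the dotted line. Ccnd2 went from 49.4% at 8 dpp to 26.3% at 18 dpp, and Cdkn2c plus Cdkn2d from 46.0% to 81.2%.

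Cdk4, the kinase partner with the higher TPM, carried at least 94.4% of the summed Cdk4 and Cdk6 TPM in every juvenile mouse. Its level was 239, 230 and 224 TPM in the 3 mice of 8 dpp and 106, 119, 132, 138 and 163 TPM in those of 18 dpp, with no overlap. The fall from 8 to 18 dpp was -0.82 on the log2 scale (SE 0.0946, adjusted p = 1.72e-08). Means in between were 220, 203, 188 and 163 TPM, and of the single steps only that from 16 to 18 dpp passed (-0.32, adjusted p = 0.00195). With median-of-ratios factors that step was -0.15 with an adjusted p of 0.0897.

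Cdk6, the other D-cyclin kinase, was low throughout and fell from 12.2, 11.5 and 11.3 TPM at 8 dpp to 6.25, 4.47, 4.32, 4.01 and 4.69 TPM at 18 dpp. Its decrease was -1.15 on the log2 scale (SE 0.130, adjusted p = 1.24e-08), and its single step past the threshold was from 14 to 16 dpp (-0.44, SE 0.113, adjusted p = 0.00489). The mice of 16 dpp (4.62 to 6.25 TPM) lay below all mice of 14 dpp (7.15 to 7.99 TPM).

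Cdkn2c and Cdkn2d, the INK4 genes among the 10, rose, each on its own schedule. The gene-level value of Cdkn2a, outside the 10, fell as described further on. Cdkn2d encodes an INK4 inhibitor, as does Cdkn2c, and loss of both is known to impair spermatogenesis in mice. Cdkn2d was at 28.1, 29.9 and 34.2 TPM at 8 dpp and at 31.4, 32.1, 35.4, 39.3 and 43.7 TPM at 10 dpp. By 12 dpp it was at 50.7, 59.4, 54.0, 52.4 and 51.0 TPM, above every mouse of 10 dpp, and by 14 dpp at 68.8, 63.4, 60.7, 59.7 and 51.7 TPM. Levels of 91.5, 79.4, 68.8, 72.7 and 77.5 TPM at 16 dpp were followed by 139, 125, 130, 95.6 and 92.1 TPM at 18 dpp. The steps to 12 dpp (0.55, SE 0.108, adjusted p = 4.34e-04), to 16 dpp (0.35, SE 0.108, adjusted p = 0.0177) and to 18 dpp (0.56, SE 0.108, adjusted p = 1.16e-04) passed. The step to 16 dpp lost its call without a filter on low values (adjusted p = 0.0546), without mouse 7 of 14 dpp (0.0608) and without mouse 1 of 16 dpp (0.0693). The total from 8 to 18 dpp was 1.87 (SE 0.124, 95% confidence interval 1.61 to 2.12, adjusted p = 4.86e-13).

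Cdkn2c, by contrast, was flat until 14 dpp. It was at 17.9, 15.6 and 18.4 TPM at 8 dpp and at 17.4, 18.9, 14.5, 13.1 and 16.5 TPM at 10 dpp. In mice of 12 dpp it was at 16.3, 15.8, 19.2, 19.8 and 16.4 TPM, and in those of 14 dpp at 14.8, 14.4, 17.2, 22.6 and 20.4 TPM. These 4 ages overlapped. At 16 dpp all mice were higher, at 42.4, 27.9, 30.4, 30.5 and 43.3 TPM. At 18 dpp the levels were 105, 109 and 101 TPM in mice 1 to 3 and 58.1 and 55.6 TPM in mice 4 and 5, all above 16 dpp. The steps from 14 to 16 dpp (0.92, SE 0.171, adjusted p = 2.13e-04) and from 16 to 18 dpp (1.24, SE 0.171, adjusted p = 3.11e-06) passed. Before that, the steps to 10, 12 and 14 dpp were -0.11, 0.12 and 0.01, with 95% confidence intervals of -0.51 to 0.30, -0.23 to 0.47 and -0.34 to 0.36, which leave room for changes of that size.

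At the step from 14 to 16 dpp, 6 of the 10 genes passed, against 24.0% of all genes. Of these, Cdkn1a, Cdkn2c and Cdkn2d were higher (12.7% of all genes were) and Ccnd1, Ccnd2 and Cdk6 were lower (11.3% of all genes). At the step from 16 to 18 dpp 8 of the 10 passed, against 54.0% of all genes. There, 2 of the 10 were higher (23.4% of all genes) and 6 were lower (30.6% of all genes). From 12 to 14 dpp 0 of the 10 passed in limma, where 0.172% of all genes did (0.157% higher and 0.0147% lower). At an unadjusted p under 0.05, 3 of the 10 and 1962 of all 20368 genes differed at that step. Of these 3, Ccnd1 was higher (0.19), and Ccnd2 (-0.27) and Ccnd3 (-0.24) were lower. From 8 to 10 dpp 1 of the 10, Cdkn1b, passed and was lower, against 1.20% of all genes in either direction and 0.226% lower.

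Spermatocyte markers, of which all 8 were in the table, went up over the same ages. The medians of their summed level, in order of age, were 351, 309, 617, 938, 2096 and 5410 TPM. The range was 243 to 357 TPM in mice of 8 dpp and 3655 to 5558 TPM in those of 18 dpp. Pgk2 was at 0 in every mouse of 8 dpp and had a mean of 102 TPM at 18 dpp. The markers rose unequally between these ages. The mean of Ldhc went from 2.07 to 2396 TPM, that of Hspa2 from 35.0 to 838 and that of Piwil1 from 2.55 to 354 TPM. Spo11 went from 4.64 to 51.5, Sycp3 from 136 to 502, Sycp1 from 78.3 to 231 and Hormad1 from 58.7 to 291 TPM. At 18 dpp, mice 4 and 5 had 1171% and 1154% of the 8 dpp mean of the spermatocyte sum, and mice 1 to 3 between 1707% and 1754%. The Sertoli sum was at 65.8% and 62.1% in mice 4 and 5 and between 46.8% and 49.2% in mice 1 to 3. In mice 1 to 3 alone, the log2 fold change from 8 to 18 dpp was 2.54 for Cdkn2c, 2.06 for Cdkn2d and -2.23 for Ccnd2. The part of the marker lists in these changes was not tested.

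The 28 mice gave the highest correlations of Cdkn2c with Haspin (Pearson's r = 0.988), Tcte1 (0.987) and Tekt4 (0.987), and of Cdkn2d with Pomt1 (0.977), Slc8a2 (0.976) and G6pc3 (0.975). For Ccnd2 they were Kitl (0.989), Dag1 (0.989) and Creb3l2 (0.987). These are descriptions over 28 mice that share the age trend and were chosen as the highest of 14895 genes, on log2(TPM + 1). Between Ccnd2 and Cdkn2d the correlation was -0.964, and between Cdkn2c and Cdkn2d 0.839.

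The share of Cdkn2c plus Cdkn2d in the summed TPM of the 5 inhibitors, which leaves out Cdkn2a and Cdkn2b, was 46.0% ± 3.41 at 8 dpp (SD for 3 mice), and then 53.1% ± 1.38, 56.2% ± 1.62, 59.8% ± 2.14, 66.6% ± 2.81 and 81.2% ± 5.54 over the later ages in order (n = 5 each). Of the summed TPM of Cdkn2c and Cdkn2d alone, Cdkn2c made up 36.1% ± 2.48 in mice of 8 dpp. This share fell to 22.8% ± 4.91 in those of 14 dpp and reached 41.8% ± 3.96 in those of 18 dpp.

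Cdkn2c is annotated with a pair of transcripts on the minus strand of chromosome 4. Cdkn2c-202 starts at 109667189, 433 bases upstream of the outer RefSeq start shown above, and Cdkn2c-201 starts at 109665372, the inner RefSeq start. At 8 dpp the upstream transcript, Cdkn2c-202, was at 8.36, 10.2 and 8.96 TPM and Cdkn2c-201 at 9.56, 5.45 and 9.46 TPM. At 18 dpp Cdkn2c-202 was at 87.2, 86.8, 83.4, 51.5 and 44.5 TPM and Cdkn2c-201 at 18.0, 22.3, 18.1, 6.64 and 11.1 TPM. The upstream transcript therefore made up 53.5% ± 10.1, 52.9% ± 9.06, 63.6% ± 5.69, 67.2% ± 9.48, 73.5% ± 5.84 and 82.7% ± 3.61 of Cdkn2c over the 6 ages in order. The share was 41.2% to 65.1% in the mice of 8 and 10 dpp and 66.8% to 88.6% in those of 16 and 18 dpp, without overlap.

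Usage, the percentage of a gene's TPM, was compared between the 8 mice of 8 and 10 dpp and the 10 mice of 16 and 18 dpp. Cdkn2c-202 rose from 53.1% to 78.1%, by 25.0 points (SE 3.50, limma adjusted p = 1.15e-04), and Cdkn2c-201 fell from 46.9% to 21.9%, the mirror of the same change. These were 2 of 20 transcripts tested from 6 of the 10 genes, against 2.30% of all transcripts. The largest of the other changes, in Cdk6, was 17.6 points (SE 6.60, adjusted p = 0.0884). It passed when mouse 2 of 16 dpp was left out (20.2 points, adjusted p = 0.0402) or mouse 3 of 18 dpp (21.0 points, adjusted p = 0.0236). In GENCODE M21, Cdkn2c-202 has 1580 bases that no other transcript of the gene holds and Cdkn2c-201 has 215. The split between them was estimated by the authors' software on the Ensembl models used by the study. Whether both annotations give these transcripts the same bases was not checked.

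**Figure D5:**
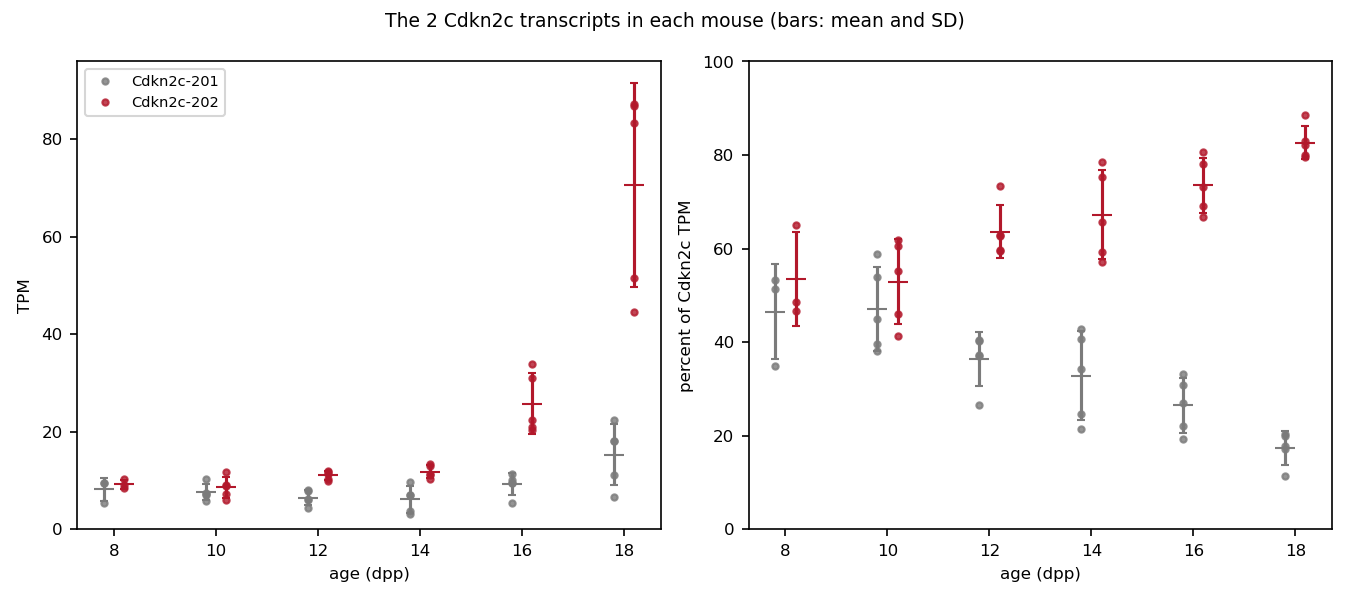
TPM (left) and percentage of the gene's TPM (right) of Cdkn2c-201 and Cdkn2c-202 in each mouse by age, with mean and SD. Cdkn2c-202 went from a mean of 9.17 to 70.7 TPM and from 53.5% to 82.7% between 8 and 18 dpp.

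Among the CIP/KIP inhibitors, Cdkn1a rose whereas Cdkn1b and Cdkn1c fell. Cdkn1a, a p53 target that halts the cycle after DNA damage, was at 7.45, 5.35 and 3.56 TPM at 8 dpp and at 6.04, 5.55, 5.03, 5.39 and 6.74 TPM at 10 dpp. By 12 dpp it was at 11.1, 9.66, 9.99, 9.72 and 11.0 TPM. Levels of 11.9, 14.9, 8.46, 10.6 and 11.1 TPM at 14 dpp were followed by 19.3, 14.8, 16.0, 20.7 and 18.2 TPM at 16 dpp and 15.5, 15.3, 12.1, 20.2 and 16.3 TPM at 18 dpp. Every mouse of 12 dpp was above every mouse of 8 and 10 dpp, and 16 and 18 dpp overlapped. The steps to 12 dpp (0.75, SE 0.144, adjusted p = 3.84e-04) and to 16 dpp (0.61, SE 0.144, adjusted p = 0.00245) passed, and the total from 8 to 18 dpp was 1.42 (SE 0.166, adjusted p = 2.35e-08).

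The genes closest to Cdkn1a over the mice were Ano1 (r = 0.950), Emb (0.939) and Hsd3b6 (0.938), the last an enzyme of steroid synthesis. The summed macrophage markers (5 of 5 in the table) had medians of 33.9, 30.7, 60.4, 83.8, 103 and 60.3 TPM over the ages in order, and the summed Leydig markers (6 of 6) 191, 258, 318, 200, 248 and 186 TPM. None of these markers was at 0 at any juvenile age. The Leydig markers went different ways. At 8, 16 and 18 dpp the means were 58.3, 127 and 112 TPM for Insl3 and 34.1, 81.5 and 60.0 for Hsd3b1. They were 2.35, 6.48 and 4.74 TPM for Lhcgr, 16.9, 22.9 and 15.7 for Star and 33.3, 38.7 and 39.1 for Cyp11a1. Cyp17a1 had 43.3, 30.5 and 36.0 TPM, with a range of 5.19 to 107 TPM among the mice of 18 dpp. Neither list's part in the course of Cdkn1a was tested.

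Cdkn1b, an inhibitor that restrains the division of Sertoli cells and many others, was at 43.2, 37.9 and 35.1 TPM at 8 dpp and fell to 28.8 to 31.2 TPM at 10 dpp, below all mice of 8 dpp (-0.36, SE 0.0757, adjusted p = 0.0114). When mouse 1 of 8 dpp was left out this step was -0.29 with an adjusted p of 0.151. It rose to 34.7 ± 2.60 TPM at 12 dpp (0.21, adjusted p = 0.0204), which became 0.18 with an adjusted p of 0.0692 without mouse 4 of 12 dpp. From 16 to 18 dpp it fell from 29.4 to 33.9 TPM to 21.4 to 25.9 TPM (-0.35, SE 0.0656, adjusted p = 9.12e-05), and the difference between 8 and 18 dpp was -0.65 (SE 0.0757, adjusted p = 2.13e-08).

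Cdkn1c, an imprinted inhibitor of growth, went from 10.9, 10.8 and 14.9 TPM at 8 dpp to 3.40, 3.28, 3.93, 5.98 and 5.94 TPM at 18 dpp. The decrease was -1.28 (SE 0.177, adjusted p = 3.78e-07). Only the step from 16 to 18 dpp passed (-0.61, SE 0.153, adjusted p = 0.00161). Its means were 12.2, 10.8, 10.3 and 8.33 TPM from 8 to 14 dpp. Over those ages the median of the summed peritubular markers (5 of 5 in the table, none at 0) went up, from 1092 to 1152, 1227 and 1409 TPM. That median was 1027 TPM (range 827 to 1519) at 16 dpp and 586 TPM (524 to 1034) at 18 dpp. From 16 to 18 dpp the Sertoli, macrophage and endothelial medians also went down, from 1655 to 1078, 103 to 60.3 and 59.7 to 37.9 TPM. The part of these lists in the course of Cdkn1c was not tested.

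In the adult pachytene samples, whose table was made separately so that no difference was tested, the 10 genes spread much further apart. Cdkn2c was at 223, 234, 211 and 233 TPM and Cdkn2d at 199, 203, 191 and 184 TPM, the highest levels of the 10 genes and without overlap between the pair. Cdk4 was at 21.3 ± 2.26 TPM (SD, n = 4), Ccnd3 at 14.6 ± 4.24 and Cdk6 at 5.81 ± 0.926 TPM, each without overlap with the next. Below them Cdkn1a was at 2.64 ± 0.928, Cdkn1b at 1.87 ± 0.769, Cdkn1c at 1.45 ± 0.402, Ccnd2 at 0.760 ± 0.102 and Ccnd1 at 0.657 ± 0.184 TPM, each pair of neighbours overlapping but for Cdkn1c and Ccnd2.

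Ccnd3 was 90.6% ± 3.52 of the D-cyclin TPM there, and Cdkn2c plus Cdkn2d were 98.6% ± 0.356 of the TPM of the 5 inhibitors. In the adult samples the summed spermatocyte markers lay between 10008 and 10417 TPM and the Sertoli markers between 94.5 and 136 TPM. Spermatid markers, between 872 and 1189 TPM, were also detected in them.

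Of 29 further genes of the pathway, all were expressed, and 26 differed among the ages, where 77.6% of all genes did. Between 8 and 18 dpp 9 rose (31.8% of all genes did), 14 fell (36.3% of all genes) and 6 did not pass. The median log2 fold change of the 29 was -0.03, against -0.09 over all genes. The largest falls were in Mycn (43.0 ± 3.61 to 14.8 ± 1.93 TPM, -1.48, SE 0.109, adjusted p = 3.76e-12), Myc (37.9 ± 4.60 to 14.6 ± 4.80 TPM, -1.36, SE 0.204, adjusted p = 1.48e-06), both MYC-family factors, and Skp2, which marks Cdkn1b protein for destruction (14.6 ± 0.190 to 6.62 ± 1.01 TPM, -1.04, SE 0.114, adjusted p = 7.24e-09). The largest rises were in the S-phase cyclin Ccne2 (26.5 ± 6.43 to 54.8 ± 4.94 TPM, 1.05, SE 0.156, adjusted p = 1.28e-06), the INK4 gene Cdkn2b (7.76 ± 1.40 to 17.0 ± 3.12 TPM, 1.04, SE 0.137, adjusted p = 1.87e-07) and the retinoblastoma relative Rbl1 (13.8 ± 0.742 to 27.3 ± 3.27 TPM, 0.92, SE 0.0965, adjusted p = 3.03e-09). Cdkn2a, the remaining INK4 gene, fell as a whole gene from 63.4 ± 3.21 to 33.4 ± 6.05 TPM (-0.92, SE 0.124, adjusted p = 2.67e-07). Its transcripts were not separated, so a fall of its INK4 transcript was not shown. Between 8 and 18 dpp Cdkn2b thus rose, as did Cdkn2c and Cdkn2d. In the separately made adult table Cdkn2b was at only 2.84 ± 0.643 TPM and Cdkn2a at 5.78 ± 1.24 TPM, whereas Cdkn2c and Cdkn2d had means of 225 and 194 TPM.

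The gene models of Ccnd1, Ccnd2, Ccnd3, Cdk4, Cdk6, Cdkn1a and Cdkn1c overlap genes on the other strand, and whether the reads kept their strand was not given in the sources used here. Cdkn1b, Cdkn2c and Cdkn2d have no such overlap. On GRCm38, Ccnd2 lies at chr6:127125162-127152193 and Cdk4 at chr10:127063534-127067920.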

How the data were processed

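RNA-seq was measured in germ cells of 28 juvenile mice and in 4 adult pachytene samples. The authors sequenced poly-A libraries, aligned paired-end reads to Ensembl and NONCODE transcripts with Bowtie 1.0.0 and computed TPM with RSEM 1.2.8. The deposited transcript and adult tables held TPM. The deposited juvenile gene table held a score, exp(log2(TPM + 1)) - 1, which was converted back to TPM. The gene table and the summed transcripts then differed by more than 0.2 TPM in 80 genes and in 0 of the 10 members (largest gap 0.0200 TPM). The authors' substage assignments were not used. TPM keeps no counts, so depth and counting error are unknown, and precision rests on the spread between mice.

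All 20368 genes of the table had a TPM of 3 or more in at least 1 mouse. Log2(TPM + 1) was tested with limma 3.58.1 in R 4.3.3, with 6 ages in 1 model, a prior variance following the mean, and Benjamini-Hochberg adjustment over all genes at a threshold of 0.05. A fold change on this scale understates the change of low genes. Transcript usage was tested with limma where the gene averaged 3 TPM or more among early and among late mice and had no fewer than 2 transcripts averaging 1 TPM or more, at an adjusted p under 0.05 and a change of 20 points or more. Both models were checked on simulated data. Python 3.11.15 with pandas 2.3.3 was used otherwise, and coordinates and symbols came from GENCODE release M21.

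Each juvenile mouse was 1 sample, named by the number in its title. Library barcodes of 8 to 12 dpp were used again at 14 to 18 dpp, so not all libraries can have shared a pool. The labels name no pool, so which libraries shared one is not known. If the pools were split between 12 and 14 dpp, pool and age cannot be told apart in any comparison across that line, transcript usage included.

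The members, the 29 pathway genes and the marker lists (Sertoli, Leydig, peritubular, macrophage, red blood cell, endothelial, undifferentiated and differentiating spermatogonium, spermatocyte, spermatid) were chosen with earlier results of these data known. Named were the 10 members, the 3 largest rises and falls of the pathway from 8 to 18 dpp, Cdkn2a and Cdkn2b, and the 3 genes of highest correlation with a member, which are not reported here for Cdkn1c. The alternatives changed the pseudocount, filters, scaling, prior, samples and covariates.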

Additional observations from a re-analysis of the deposited data

Results flagged for a closer look

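In 60 groups of 4 to 10 samples, 4 values lay far from the rest of their group, where chance gives about 1 in 20 groups. Mouse 7 of 14 dpp was the lowest of its age for Ccnd2, at 38.1 TPM against 41.6 to 43.0 TPM in the other 4 mice, and for Cdk6, at 7.15 TPM against 7.82 to 7.99 TPM. Mouse 5 of 10 dpp was low for Cdk6, at 7.18 TPM against 10.6 to 11.9 TPM. Mouse 3 of 14 dpp was low for Cdkn1c, at 7.24 TPM against 8.51 to 8.68 TPM.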

How the results depend on the processing

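Under every alternative run, all 10 members kept their direction and call between 8 and 18 dpp (390 values). Of 741 values for the 19 steps called for a member, 731 stayed called and 10, in 5 steps, did not, none reversing. Besides the values given with Cdk4, Cdkn1b and Cdkn2d, Cdkn1b from 8 to 10 dpp was -0.36 with an adjusted p of 0.0684 when only the ages compared were fitted. In mice 1 to 3 alone, an alternative chosen after seeing the data, Cdkn1b from 10 to 12 dpp was 0.17 (0.165) and Cdkn1a from 14 to 16 dpp 0.50 (0.0991). The cause was not tested. The median log2 fold change of all genes from 8 to 18 dpp was -0.09, 0.05 with median-of-ratios factors and -0.26 with quantile normalization; relative to it, Ccnd1, the member nearest 0, was at -0.40, -0.37 and -0.30. The split of all calls was 6487 higher and 7402 lower, 7589 and 5991 with median-of-ratios factors and 5532 and 9148 with quantile normalization, so that the larger side turned with the first.

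From 8 to 10 dpp 245 genes were called, but 129 when only the ages compared were fitted, which called 0 members, and 106 to 288 with 1 mouse left out, with 0 or 1 member (106 genes and 0 members without mouse 1 of 8 dpp). From 12 to 14 dpp 35 genes were called, but 7 without a filter, 16 with median-of-ratios factors, 12 with quantile normalization, 6 with only the ages compared, 1 in mice 1 to 3 alone and 2 (without mouse 4 of 12 dpp, or mouse 1 or 6 of 14 dpp) to 129 (without mouse 3 of 12 dpp) with 1 mouse left out. With 1 mouse left out, 3 to 5 members were called from 10 to 12 dpp, beside 3515 to 4691 of all 20368 genes. From 14 to 16 dpp 5 to 7 members were called, beside 3538 to 5395 of all genes. Usage called 549 transcripts, and 1602 with a change of 10 points. With 1 mouse left out it called 488 to 604 transcripts, among them 2 to 4 member transcripts. There were 4 without mouse 2 of 16 dpp or mouse 3 of 18 dpp, the added pair being the transcripts of Cdk6.

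Mouse numbers did not pair the samples: deviations of 57 same-numbered pairs correlated at -0.25 to 0.25 (3 over 0.1), and 6 of 28 mice correlated best with their own number. A replicate block on that number gave 131 genes from 8 to 10 dpp and 0 from 12 to 14 dpp, and Cdkn2d from 14 to 16 dpp was then 0.30 with an adjusted p of 0.121.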

Other observations

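Among other members, the genes of highest correlation over the 28 mice were Crabp1 (r = 0.936), Pus7 (0.920) and Tars (0.917) for Ccnd1. For Ccnd3 they were Gm26883 (0.959), Acaa2 (0.958) and Txndc5 (0.957), and for Cdk4 they were Ppib (0.959), Anxa6 (0.957) and Hnrnpab (0.956). Cdk6 was closest to Tmcc3 (0.957), D1Ertd622e (0.947) and Notch2 (0.944), and Cdkn1b to Fzd7 (0.913), Carmil3 (0.896) and Osbpl10 (0.894).

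The remaining marker lists were measured too. Between 8 and 18 dpp the median of the summed red blood cell markers went from 466 to 313 TPM, that of endothelial markers from 54.1 to 37.9 TPM, and that of spermatid markers, of which Tnp2 was at 0 in every mouse of 8 dpp, from 4.14 to 8.59 TPM. The differentiating spermatogonium list went from a median of 422 to 651 TPM, in which Dmrtb1 went from a mean of 54.9 to 420 TPM while Kit, Stra8 and Sohlh1 went from 49.2 to 27.0, 209 to 86.7 and 81.9 to 32.0 TPM.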
